A study of Homo sapiens with 2 samples.

Results

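The MYC to NDRG1 window of chromosome 8q24 is a stretch of 10 Mb, from 126 to 136 Mb of human chromosome 8 (hg38), that holds the growth regulator MYC near its low-coordinate end and the stress-response gene NDRG1 further along. Its members are the peaks of histone H4 acetylated at lysine 5 (H4K5ac) whose summit lay in the window: 902 in normoxia and 1874 in hypoxia, 2776 of the 378228 peaks in both lists together. The window was selected on measured values, the numbers of peaks and of strong peaks per list, so those numbers are a description and support nothing. The study used chromatin immunoprecipitation and sequencing (ChIP-seq) in FaDu, an established line of human head and neck carcinoma cells. There was 1 library from cells in normoxia and 1 from cells held at 1% O2 for 18 h, both grown in the same supplemented medium. Knockdown of METTL4 is mentioned in the culture protocol, but no label gives it to either library, and the series' design text names another histone mark than the H4K5ac of the sample labels. With 1 library per condition there was no test of the condition. Intervals below are 95% intervals that cover counting error only, and neighbouring peaks are not replicates.

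H4K5ac is laid down by histone acetyltransferases, is read by bromodomain proteins, and is found at active promoters, enhancers and along the bodies of some strongly transcribed genes. MYC encodes a transcription factor that drives growth and metabolism. It sits between broad gene deserts that carry distal enhancers and long non-coding RNA (lncRNA) genes, and next to PVT1, a lncRNA gene often gained together with it in cancer. NDRG1 is known to be induced by low oxygen in many cell types.

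The window held more peaks in hypoxia than in normoxia throughout, but the excess was uneven. In the deposited lists it was modest around MYC, PVT1 and the deserts and larger within ASAP1. Among the genes with at least 10 peaks, it was largest at KCNQ3 and NDRG1. The peak ratio, hypoxia over normoxia, was 2.08 (1.92 to 2.25) for the window. It was 1.88 (1.83 to 1.93) for the rest of chromosome 8 and 2.15 for the rest of the genome. In all deposited peaks the window was thus near the genome, but among stronger peaks it was above it. Numbers of strong peaks were among the values used to select the window, so the latter is a description only. Among 285 windows of 10 Mb with at least 100 normoxia peaks, it ranked 10 from the top by normoxia peaks and 6 by hypoxia peaks, but 149 by their ratio. The lists differ in length, and with the hypoxia list limited to as many peaks as the normoxia list, the window's ratio was 1.16 (1.06 to 1.27), where that of the genome is 1 by construction. When peaks under a −log10 q-value of 5 were left out it was 3.32 (2.92 to 3.78), against 2.26 for the genome. At 10 or more it was 2.36 (1.95 to 2.88), against 1.63.

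The window was also split at 131 Mb, between ASAP1 and EFR3A, into a MYC side and an NDRG1 side. On the MYC side (126 to 131 Mb) there were 547 normoxia and 957 hypoxia peaks, a ratio of 1.75 (1.57 to 1.95). On the NDRG1 side (131 to 136 Mb) there were 355 and 917, a ratio of 2.58 (2.28 to 2.93). The split was chosen after the values were seen. Strong peaks, defined by a −log10 q-value of 10 or more, numbered 107 and 201 on the MYC side and 44 and 156 on the NDRG1 side. The NDRG1 side therefore held fewer peaks in normoxia and nearly as many in hypoxia.

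By bins of 250 kb, hypoxia peaks outnumbered normoxia peaks in all 40 bins, as they did in 93.6% of the bins of the genome with any peak. They were at least 2 times as many in 20 of 40 bins, against 61.5% of all bins of the genome with any peak. Of these 20 bins, 4 lay on the MYC side and 16 on the NDRG1 side. Restricted to bins with at least 20 peaks over both lists, the count was 17 of 37, of which 13 lay on the NDRG1 side, against 56.1% over the genome. Without peaks under a −log10 q-value of 5, the count was 35 of the 39 bins that still held a peak, against 63.9% over the genome. With lists of equal length it was 6 of 39, against 15.4%. The share of such bins was thus below the genome's in all deposited peaks and near it with lists of equal length. It was above the genome's only when peaks were filtered by q-value.

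The bin with the most normoxia peaks lay over PVT1 (127.75 to 128 Mb), with 40 in normoxia and 70 in hypoxia. The bin with the most hypoxia peaks lay from 133.25 to 133.5 Mb, over most of NDRG1, and held 24 and 75. Over KCNQ3, the bin from 132.25 Mb held 8 normoxia and 46 hypoxia peaks. These 3 bins show the range of the pattern within the window. The PVT1 bin was dense in both lists. The KCNQ3 bin was sparse in normoxia for the window, though near the genome's median of 9. The 24 normoxia peaks of the bin over NDRG1 were near the window's median of 24.5 and at the genome's percentile 90, which is 24. The last 3 bins of the window were nearly empty, with 2 normoxia and 21 hypoxia peaks together. For comparison, bins of the genome had a median of 9 normoxia and 19 hypoxia peaks, and those of the window 24.5 and 47.

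**Figure D1:**
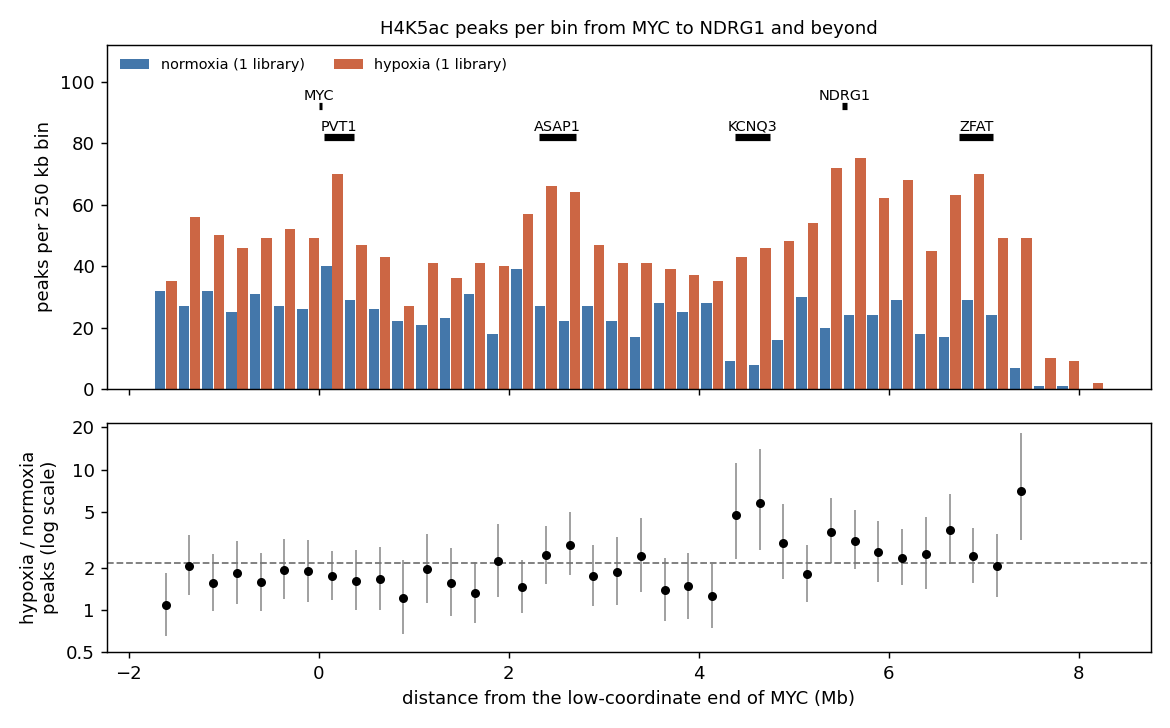
Peaks per 250 kb bin in normoxia and hypoxia (1 library each; upper panel, bars) and the hypoxia over normoxia ratio with its 95% counting interval (lower panel, log scale) against distance from the low-coordinate end of MYC in Mb. Black bars mark gene spans, the dashed line is the ratio over the whole genome, and the 3 last bins, with 2 normoxia peaks together, have no ratio drawn; most ratios on the MYC side lie below the line and most on the NDRG1 side above it.

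Peaks found in 1 list alone were mostly weak. Of 1874 hypoxia peaks, 1238 (66.1%) overlapped no normoxia peak by even 1 bp, against 67.3% over the genome. Of 902 normoxia peaks, 298 (33.0%) overlapped no hypoxia peak, against 31.3%. Both shares were close to the genome's. With both lists limited to strong peaks, 38.1% of hypoxia peaks overlapped a normoxia peak that was itself strong, against 56.7% over the genome. By side, however, hypoxia peaks without a normoxia partner made up 59.8% on the MYC side and 72.6% on the NDRG1 side.

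Overlap depended on strength. Among hypoxia peaks whose −log10 q-value was from 10 to below 30, 62.1% overlapped a normoxia peak, and all 85 peaks at 30 or more did. Among normoxia peaks these shares were 96.9% and all 53. Strong peaks found in 1 list alone numbered 103 of 357 in hypoxia and 3 of 151 in normoxia. Over the whole genome they numbered 6526 of 48782 and 497 of 29967. The window's sites at a −log10 q-value of 30 or more were thus marked in both conditions. Shares by these steps of strength were not computed over the genome, so this is not read as particular to the window.

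**Figure D2:**
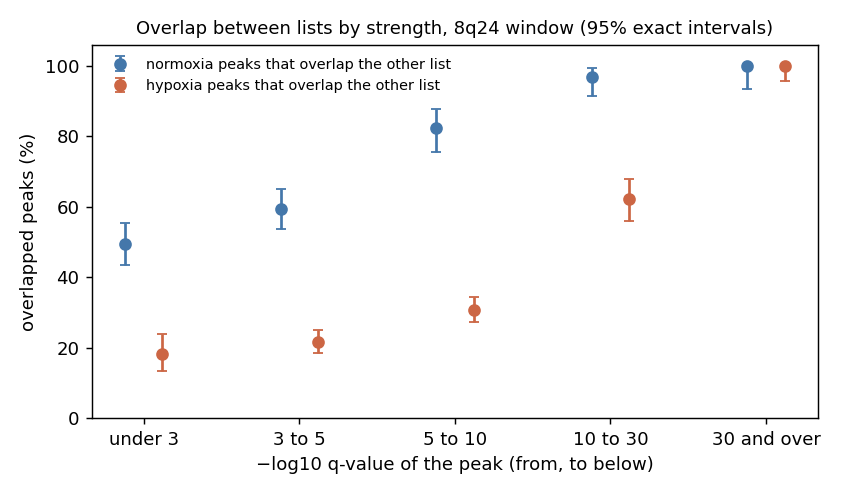
Share of window peaks (%) that overlap a peak of the other list, by −log10 q-value of the peak, with 95% exact binomial (Clopper-Pearson) intervals over peaks, for 1 normoxia and 1 hypoxia library. In both lists the share goes up with strength, and it reaches 100% at 30 and over.

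The 3 strong peaks found in normoxia alone all lay on the MYC side. The first (127795759 to 127796735; 114 reads over its summit, fold 2.11) lay just inside PVT1, over the microRNA gene MIR1204. Another (128035325 to 128035850; 59 reads, fold 3.56) lay further along PVT1. The last (128666296 to 128666731; 33 reads, fold 5.36) lay in the desert beyond it. The strongest found in hypoxia alone lay at 133403603 to 133404369, between NDRG1 and the sialyltransferase gene ST3GAL1, with 94 reads and a fold of 4.33. Folds and q-values are the authors' values per peak. They rank or filter peaks within a list, and numbers of peaks past the same q-value are set side by side, but no difference in the values themselves is read as a change.

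Where exactly 1 normoxia and 1 hypoxia peak overlapped each other, the reads over their summits could be set side by side. Such pairs numbered 518 in the window and 69577 in the genome. Because library sizes differ, only the position relative to all pairs is read. The median ratio of reads, hypoxia over normoxia, was 1.17 (1.10 to 1.22) in the window and 1.27 in the genome. On the MYC side it was 1.04 (1.00 to 1.09, 306 pairs), and on the NDRG1 side 1.29 (1.25 to 1.35, 212 pairs). The median shared site of the MYC side thus had fewer hypoxia reads relative to normoxia than that of the genome, while the NDRG1 side was near the genome.

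Hypoxia had fewer reads than normoxia in 167 of 518 pairs (32.2%), against 23.1% over the genome. The share was 41.5% on the MYC side and 18.9% on the NDRG1 side. The local background, the read level around a peak against which it was called, moved with this. It was lower in hypoxia in 369 of 518 pairs (71.2%), against 43.5% over the genome, with 85.9% on the MYC side and 50% on the NDRG1 side. Pairs at the lowest background of both lists, 3.13 and 3.24 reads, have a ratio of 1.04 and cannot count as lower. The genome's 43.5% therefore depends on how many of its pairs lie there, which was not counted. The part of the background in the read ratios was not tested.

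By stretches of 1 Mb, the read ratio was lowest from 127 to 128 Mb, at 0.991, and highest from 134 to 135 Mb, at 1.39. The background ratio was lowest from 128 to 129 Mb, at 0.754, which ranked 10 from the lowest among 1461 stretches of the genome with at least 20 pairs. From 133 to 134 Mb, which holds NDRG1, it was 1.08. Over those 1461 stretches the median background ratio was 1.01. Across the window the ratio at shared sites thus went from below that median to near it. The median over all pairs of the genome, 1.04, equals the ratio of pairs at the lowest background of both lists, so it is a limited yardstick.

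**Figure D3:**
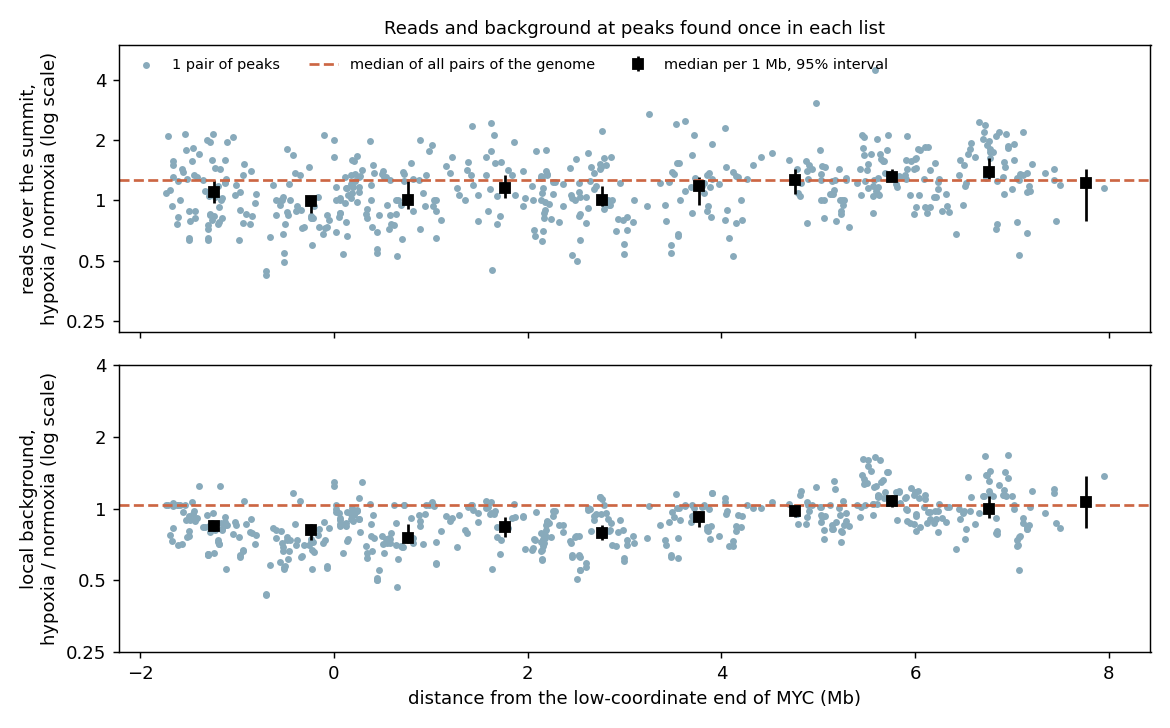
Ratio of reads over the summit (upper panel) and of local background (lower panel), hypoxia over normoxia, on log scales, for each of 518 pairs of peaks against distance from the low-coordinate end of MYC in Mb. Squares are medians per 1 Mb with 95% order-statistic intervals and the dashed line is the median of all pairs of the genome; the first 7 squares lie below the line in both panels.

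MYC (chromosome 8, 127735434 to 127742951) was marked at its start in both conditions, with equal numbers of peaks and with more hypoxia reads in both of its one-to-one pairs. Inside the span were 4 normoxia and 4 hypoxia peaks, of which 2 and 3 were strong. A pair with summits just outside the span's low end had 100 normoxia and 165 hypoxia reads, a ratio of 1.65 (1.28 to 2.14). A second pair, about 1 kb inside the span, had 98 and 197 reads, a ratio of 2.01 (1.57 to 2.59). Both ratios lay above the genome's 1.27 and above the median of 1.04 of the MYC side. Between these pairs, a normoxia peak of 120 reads overlapped a pair of hypoxia peaks of 122 and 113 reads, so the difference was not seen at every summit.

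Hypoxia also had a peak of 2037 bp inside MYC (127736922 to 127738958), among the 5 widest of its list in the window. It overlapped normoxia peaks of 660 and 263 bp. Background around the 5 peaks at MYC in each list was 41.7 to 47.8 reads in normoxia and 53.9 to 56.8 in hypoxia. Unlike most of its surroundings, MYC had a background that was higher in hypoxia, with ratios of 1.29 and 1.25 in its pairs, and the part of that difference in the read ratios was not tested. Peaks are placed by gene ends, and which end of a gene is its start is background knowledge, since the annotation used gives no strand.

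PVT1 (127794524 to 128101256), whose lncRNA is transcribed away from MYC, was densely marked in both lists. It contained 46 normoxia and 81 hypoxia peaks, a ratio of 1.76 (1.21 to 2.59), of which 20 and 28 were strong. The pair at its low end, where transcription starts, had 311 and 318 reads, a ratio of 1.02 (0.872 to 1.20). That site, with more reads than any peak at MYC, lay below the genome's ratio of 1.27, unlike both pairs at MYC. Among the 30 pairs with both summits inside the span, which leaves out the pair at its start, 10 had fewer hypoxia reads and 27 had a lower hypoxia background.

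Individual pairs in PVT1 went in either direction. At a summit at 127831542, normoxia had 63 reads and the hypoxia partner 34, a ratio of 0.540 (0.345 to 0.832). At 127970559 the numbers were 52 and 87, a ratio of 1.67 (1.17 to 2.41). Both pairs were chosen after their values were seen.

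**Figure D4:**
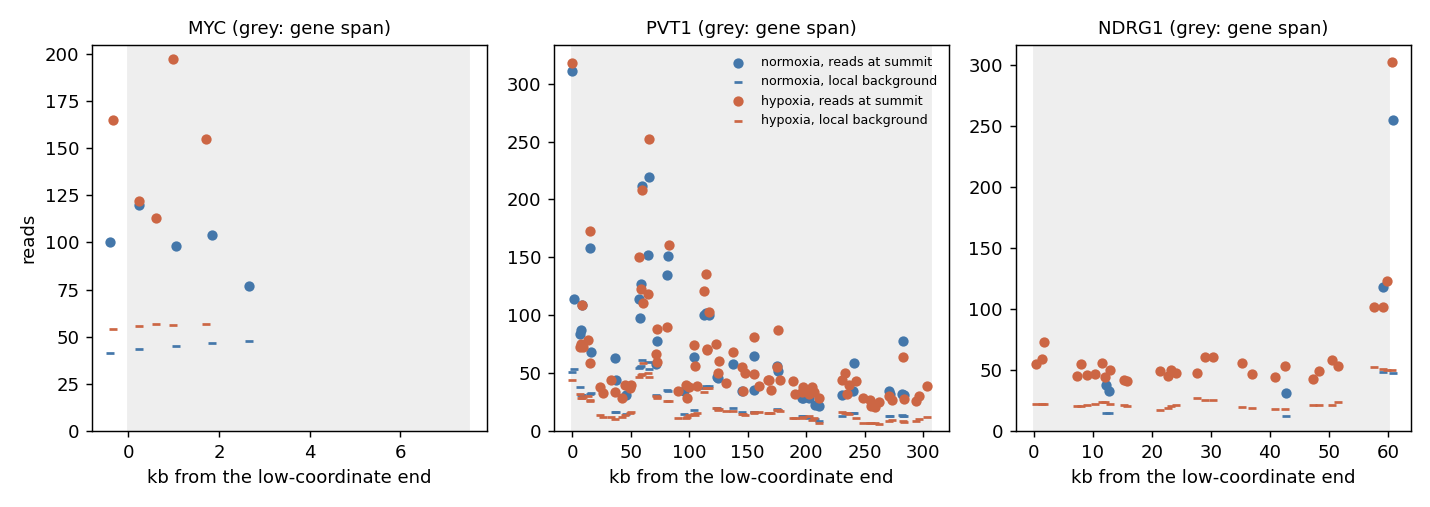
Reads over the summit (points) and local background (dashes) of each peak at MYC, PVT1 and NDRG1 in normoxia and hypoxia, 1 library each, against distance from the low-coordinate end of each gene in kb (grey, gene span). Reads at MYC are mostly higher in hypoxia, those at the start of PVT1 are alike at 311 and 318, and NDRG1 has many hypoxia points of 41 to 73 reads inside its body beside 3 normoxia points.

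The deserts on either side of MYC held many peaks in both conditions. From the window's start to MYC there were 196 normoxia and 333 hypoxia peaks, a ratio of 1.70. Between PVT1 and the gasdermin gene GSDMC there were 156 and 250, a ratio of 1.60. These stretches hold few protein-coding genes, and their ratios were below that of the window.

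Yet most of the window's peaks with the highest folds lay in these deserts. The one at 128744469 to 128745242, about 1 Mb above MYC, had 92 normoxia reads and 174 hypoxia reads, a ratio of 1.89 (1.46 to 2.46), with folds of 12.2 and 21.7. Another at 126341432 to 126342157, below MYC, had 79 and 135 reads, a ratio of 1.71 (1.29 to 2.29). Desert pairs starting at 126805077 and 128896956 had ratios of 1.52 (1.15 to 2.02) and 1.48 (1.10 to 2.00). All 4 lay above the median of the MYC side, though they were picked for a high fold in either list, which favours high reads.

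All 13 lncRNA genes listed for the flanks of MYC were found in the annotation. In their spans, 11 had more hypoxia peaks and 2 had equal numbers, and 63.4% of lncRNA genes with any span peak had more in hypoxia genome-wide. CCDC26, in the desert beyond PVT1, held 29 normoxia and 59 hypoxia peaks, with 1 and 12 strong. CASC8, on the other side of MYC, held 20 and 39, with 7 and 8 strong. At CCAT1, a lncRNA gene named for colon cancer, the overlapping peaks at the high end had 84 normoxia and 46 hypoxia reads, a ratio of 0.548 (0.374 to 0.794). At its low end they had 56 and 58 reads, a ratio of 1.04 (0.705 to 1.52). Spans of these genes overlap in places and then share peaks. Of all 61 lncRNA genes in the window, 24 were marked in both lists at a gene end, meaning a peak within 1000 bp of either end of the span, against 33.5% genome-wide. Another 19 were marked in hypoxia only, against 18.4% of lncRNA genes genome-wide, 4 in normoxia only and 14 in neither.

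ASAP1 (130052104 to 130443674), which encodes a GTPase-activating protein for ARF proteins with roles in membrane traffic and adhesion, held 41 normoxia and 104 hypoxia peaks, a ratio of 2.54 (1.75 to 3.74). With lists of equal length this ratio was 1.32 (0.861 to 2.03), and that of PVT1 was alike at 1.33 (0.890 to 1.99). Strong peaks numbered 10 and 17. At its high-coordinate end, where transcription starts, 1 pair had 289 and 339 reads, a ratio of 1.17 (1.00 to 1.38). Among the 24 pairs with both summits inside the span, which leaves out the pair at its start, 23 had a lower background in hypoxia and 9 had fewer reads. ASAP1 thus held more peaks in hypoxia while its shared sites had a median read ratio of 1.04, equal to that of the whole MYC side.

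NDRG1 (133237175 to 133297252) differed between conditions along its body more than at its start. Between its ends lay 4 normoxia and 30 hypoxia peaks, a ratio of 7.50 (2.64 to 29.3), and they covered 3.05% and 16.1% of it. At the high-coordinate end, where transcription starts, the pair of peaks had 255 and 302 reads, a ratio of 1.18 (1.00 to 1.40), with folds of 5.24 and 5.92. Its summits lay just outside the span, and the interval of its ratio holds the genome's 1.27. More than 5 kb below that end, in the body, there were 3 normoxia and 27 hypoxia peaks.

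The body peaks of NDRG1 were mostly weak. Their median −log10 q-value was 3.58 in normoxia, with a highest of 4.58, and 5.11 in hypoxia, with a highest of 14.9. Their reads ranged from 31 to 38 in normoxia, with a median of 33, and from 41 to 73 in hypoxia, with a median of 49. Their background ranged from 12.3 to 15.0 reads in normoxia and from 17.5 to 27.0 in hypoxia. A peak needs more reads to be called over a higher background, and library depth differs, so nothing is read from these read numbers alone. In the 3 pairs of the body the background ratio was 1.44 to 1.60, against 1.05 at the start. Most of the hypoxia peaks belonged to runs with gaps of at most 5 kb, 1 of 15 peaks within the gene and 1 of 14 peaks that began below its low end. Background in the body thus moved with the number of peaks called in it, and its part in that number was not tested. Of the span's peaks, only 1 in normoxia and 2 in hypoxia were strong, a ratio of 2.00, and those 2 overlapped no normoxia peak. With lists of equal length there were 4 and 19 peaks, a ratio of 4.75.

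The 5 runs with the most hypoxia peaks all lay on the NDRG1 side. The longest, from 133940881 to 133992074, held 21 hypoxia peaks over 51.2 kb in which no annotated gene was listed. A run in ZFAT held 15. No normoxia run in the window exceeded 6 peaks. The median gap between peaks of the window was 7.185 kb in normoxia and 3.673 kb in hypoxia. A limit of 5 kb therefore joins peaks of the longer hypoxia list more readily. Runs were not counted over the genome or with lists of equal length, so they are not read as a trait of the region or of hypoxia.

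The window holds 22 protein-coding genes. At a gene end, 14 were marked in both lists, against 69.3% of protein-coding genes genome-wide. Another 7 were marked in hypoxia only, against 11.7%, none in normoxia only, and HHLA1 in neither. The 7 were POU5F1B, ADCY8, KCNQ3, TG, SLA, CCN4 and KHDRBS3. Several are best known from other tissues: ADCY8 and KCNQ3 encode an adenylyl cyclase and a potassium channel of neurons, TG encodes thyroglobulin, and SLA, which lies inside TG, an adaptor of lymphocytes. POU5F1B is a near-identical copy of POU5F1, and its reads may not be assigned with certainty. Marker genes of other lineages outside the window also had gene-end peaks in hypoxia only, as given below.

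Within gene spans, 18 of the 22 held more hypoxia peaks, against 71.2% of protein-coding genes with any span peak, 3 held equal numbers and 1, PHF20L1, fewer (8 in normoxia and 6 in hypoxia). Of 16 with at least 10 peaks over both lists, 12 had at least 2 times as many in hypoxia, against 55.1% genome-wide. KCNQ3 held 9 normoxia and 67 hypoxia peaks, a ratio of 7.44 (3.70 to 17.0), with 0 and 4 strong. TG held 24 and 72, a ratio of 3 (1.87 to 4.98), with 2 and 10 strong. In normoxia neither gene was marked at an end.

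ZFAT, which encodes a zinc finger protein, held 43 normoxia and 97 hypoxia peaks, with 7 and 29 strong. Its ratio of 2.26 (1.56 to 3.31) was near the 2.15 of all peaks of the genome. At its high end, overlapping peaks that were not a one-to-one pair had 303 and 292 reads, a ratio of 0.964 (0.818 to 1.14). ST3GAL1 held 8 and 28 peaks, and the pair at its high end had 279 and 369 reads, a ratio of 1.32 (1.13 to 1.55). ADCY8 held 19 and 40. The genome's 1.27 is a median of one-to-one pairs, so only the ratio at ST3GAL1 is set beside it, and that was near it.

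DNAAF11, a gene of cilia assembly, held 8 and 24 peaks, and its neighbour TMEM71 held 6 and 19. TMEM71 and PHF20L1, a reader of methylated lysine, share 1 peak between them (132775277 to 132776051 in normoxia), with 154 and 229 reads, a ratio of 1.49 (1.21 to 1.84). It had the highest fold of any peak at a gene end in the window in both lists, 12.6 and 20.1. On the MYC side, differences were smaller at CYRIB and GSDMC. CYRIB, whose product restrains RAC1-driven actin remodelling, held 30 and 43 peaks, and GSDMC 11 and 12. At the high end of GSDMC both lists had 105 reads. EFR3A, which anchors a lipid kinase at the plasma membrane, held 9 and 12, with 237 and 309 reads at its low end, a ratio of 1.30 (1.10 to 1.55).

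**Figure D5:**
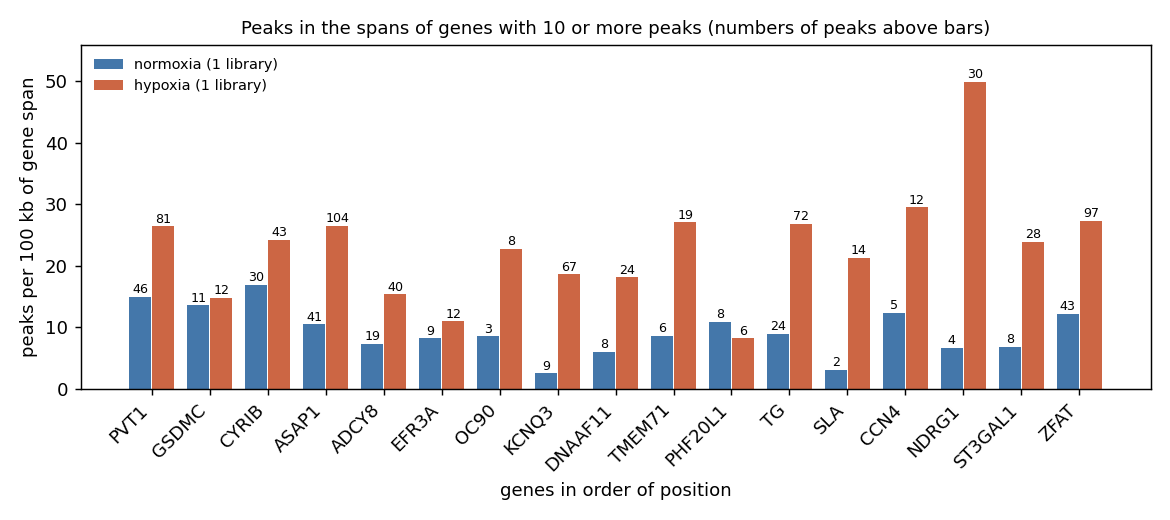
Peaks per 100 kb of gene span in normoxia and hypoxia (1 library each) for PVT1 and the protein-coding genes of the window with at least 10 peaks, in order of position, with peak numbers above the bars. NDRG1 has 4 and 30 peaks and KCNQ3 9 and 67, while GSDMC has 11 and 12.

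Genes of the MYC pathway outside the window were described for context. Of 12 genes of the MYC and MAX network, which encode partners and antagonists of MYC, 11 were marked at a gene end in both lists. MXI1 was marked in neither, and genome-wide 69.3% of protein-coding genes were marked in both. In the 9 network genes with pairs of peaks, the median read ratio per gene ranged from 1.25 to 1.67, against 1.27 over all pairs of the genome. The highest, at MLX, rested on 1 pair and the lowest, at MLXIP, on 6. MAX, the obligate partner of MYC, held 5 and 21 span peaks, and the antagonist MXD1 3 and 1. The relatives NDRG2, NDRG3 and NDRG4 were all marked in both lists, against the same 69.3%. They held 4 and 11, 7 and 18, and 6 and 9 span peaks.

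The 11q13 window (68 to 73 Mb of chromosome 11), another region dense in strong hypoxia peaks, was unlike 8q24. Its median background was 9.27 times that of the whole normoxia list and 13.3 times that of the hypoxia list, whereas 8q24 was at 1.28 and 1.37 times. Its pairs had a median read ratio of 1.49, against 1.17 for 8q24, with intervals of 1.44 to 1.54 and 1.10 to 1.22. Strong peaks were 3.31 times as many in hypoxia there and 2.36 times (1.95 to 2.88) in 8q24, against 1.62 times in the rest of the genome. As 8q24 was selected on such numbers, its excess over the genome is a description only.

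At the window's edges, the first normoxia peak inside had 11 reads and the last 13, and the nearest outside had 12 and 35. For hypoxia the first and last inside had 12 and 14 reads, and the nearest outside 18 and 20. Of 6 epithelial and squamous marker genes, 5 had a gene-end peak in normoxia (TP63 had none) and 6 in hypoxia. Of 6 marker genes of other lineages, 0 had one in normoxia and 4 in hypoxia, with PTPRC and ALB unmarked in both. Genome-wide, 11.7% of protein-coding genes were marked in hypoxia only. The part of such marking in the gene-end counts of the window was not tested.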

How the data were processed

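The data were 2 peak lists, each called on its own library. MACS2 and SICER are named and the build is hg38, per the submitters' processing notes; versions, settings, any control library and read totals were not stated in what was used here. The authors deposited for every peak an integer score, a fold enrichment (a ratio), p and q on the −log10 scale, and its start, end and summit. Reads over the summit (pileup) and local background were solved from the deposited fold and −log10 p-value, taking fold as (pileup + 1) / (background + 1) and p as a Poisson tail. Pileups came out whole, within 0.02, in 100.0% of peaks of both lists. The lowest background was 3.13 reads in normoxia and 3.24 in hypoxia, and the narrowest peaks were 245 and 215 bp, so depth and fragment length differ and bare read ratios are not changes.

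Overlap means at least 1 bp. Gene spans are those of RefSeq on GRCh38.p14 for 19974 protein-coding genes. A gene-end peak lies within 1000 bp of either end of a span and can belong to a neighbour; exons, introns and UTRs were not distinguished. Shares have exact binomial (Clopper-Pearson) intervals, ratios intervals from the same method, and medians order-statistic intervals, all at 95%. Python 3.11.15, pandas 2.3.3 and scipy 1.17.1 were used, and the solver was tested on simulated data. Genes named were MYC, PVT1, ASAP1 and NDRG1, every protein-coding gene of the window in counts and up to 12 with the most peaks by value, a list of lncRNA genes, the MYC and MAX network and the NDRG family, and in each list the 5 peaks highest in fold, widest, or strongest in 1 list alone. The members and lists were chosen with earlier results of these data known. Alternatives changed the q-value threshold, list length, stitching, overlap, bins and gene margins.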

Additional observations from a re-analysis of the deposited data

How the results depend on the processing

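Each main value was recomputed under other settings, 62 values in all. Of these, 29 stayed within their counting interval or moved by under 1.5 times for counts, and 33 moved further. The 33 include the counts of bins at 100 kb and 500 kb, where the number of bins itself changed. The only ratio to cross 1 was the read ratio of the MYC side, 1.04 as deposited and 0.953 for pairs with at least 30 normoxia reads. The peak ratio of the window, 2.08 as deposited, was 2.36 and 3.32 with −log10 q-values of at least 10 and 5, and 1.16 with lists of equal length. At these 3 settings the share of hypoxia peaks overlapped (33.9%) was 38.1%, 26.1% and 44.3%, and that of normoxia peaks (67.0%) was 85.4%, 81.2% and 51.2%. With overlap of 50% of the narrower peak these were 31.6% and 63.2%. Bins with at least 2 times as many hypoxia peaks numbered 35 at a −log10 q-value of 5, 6 with equal lengths, 53 of 100 at 100 kb and 9 of 20 at 500 kb (62.1% and 61.4% over the genome). The read ratio of pairs (1.17) was 1.28 with equal lengths and 1.08 for pairs with at least 30 normoxia reads, a setting added after seeing the data; the genome's ratio (1.27) was then 1.38 and 1.31. The normoxia background multiple (1.28) was 1.47 at a −log10 q-value of 10; that of hypoxia (1.37) was 1.07 at 10, 1.21 at 5 and 1.21 with equal lengths. The causes were not tested. The NDRG1 side kept the higher peak ratio under each filter, list and stitching setting (1.01 and 1.40 with equal lengths; 1.88 and 3.55 at 10), and the higher read ratio under each pair setting, at 0.953 to 1.17 on the MYC side and 1.29 to 1.41 on the NDRG1 side. No paired analysis was possible because each condition has 1 library. Read totals are unknown, so weak peaks cannot be set on a common depth.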
